A study of Mus musculus with 32 samples.

Results

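The striatum of R6/2 and wild-type (WT) mice was compared for how each gene responded to the compound HSP990, which inhibits the chaperone HSP90. The quantity of interest is the interaction, the HSP990 response of R6/2 mice (HSP990 minus vehicle) minus the HSP990 response of WT mice, on the log2 scale. The 18193 genes with a probe set of a single gene symbol were measured on 32 Affymetrix arrays, all of which were used, and 45 genes passed the test. The 4 groups were 8 arrays of R6/2 mice given HSP990, 7 of R6/2 mice given vehicle, 10 of WT mice given HSP990 and 7 of WT mice given vehicle. All mice were male, 12 weeks old and on a mixed CBA X C57Bl/6 background, and they received 12 mg/kg HSP990 or the vehicle by oral gavage, with a treatment time of 4 h. R6/2 is a transgenic line that expresses a fragment of human huntingtin with an expanded polyglutamine tract, from the human huntingtin promoter, so it models a truncated protein and not a change at the mouse gene. Mouse Htt, which is not the transgene and so does not check the genotype labels, had an interaction difference of 0.18 ± 0.19 (SE of the fit here and below, adjusted p = 0.735). The labels name no individual animals, so p-values measure the spread between these arrays.

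Inhibition of HSP90 releases heat shock transcription factors, which bind heat shock elements in promoters and induce the chaperones that refold or hold damaged proteins. HSP70 proteins work with HSP40 co-chaperones in the cytosol, while the HSP60 and HSP10 proteins form a folding chamber in mitochondria. In the R6/2 striatum neuronal genes are widely repressed as the disease progresses, and an interaction asks whether the same drug moved a gene differently on that altered starting state.

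Array medians ran from 5.73 to 5.78 log2 units and correlations between arrays from 0.969 to 0.997. Labelling was from the 3' end of the RNA, so the difference between 3' and 5' control probe sets of Gapdh and Actb rises where RNA is less intact. This 3' bias averaged 1.83 ± 1.18 log2 units in R6/2 HSP990 arrays, 1.15 ± 0.45 in R6/2 vehicle arrays, 1.05 ± 0.37 in WT HSP990 arrays and 1.42 ± 0.59 in WT vehicle arrays (SD, n = 8, 7, 10 and 7). HSP990 arrays were higher in R6/2 by 0.68 (exact two-sided permutation p = 0.133) and differed by -0.37 in WT (exact two-sided permutation p = 0.139), so the bias itself had a difference of differences of 1.05. R6/2 HSP990 replicate 5 stood apart at 4.56, and without it the R6/2 difference was 0.29 (exact two-sided permutation p = 0.249). Because the bias runs in the direction of the contrast, each result below was also fitted with the bias of each array as a covariate.

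The interaction was called, at an adjusted p under 0.05, for 45 genes, which is 0.247% of the genes tested, with 31 higher (0.17%) and 14 lower (0.077%) in R6/2. At an unadjusted p under 0.05 there were 2345 genes. The count was 182 without R6/2 vehicle replicate 1, 93 without WT vehicle replicate 7, 76 without WT HSP990 replicate 2, 69 without R6/2 HSP990 replicate 2 and 69 without WT vehicle replicate 4, and it was lowest, at 30, without WT vehicle replicate 1. With the 3' bias covariate 16 genes were called (0.0879%), 14 of them among the 45. The 45 differences kept their sign with the covariate, and 37 were smaller in size, with a median of 87.5% of the difference kept (65.7% to 119%). The slope of a gene on 3' bias had the sign of its interaction difference in 37 of the 45, and 11 of them had a slope that itself passed the test, against 2357 (12.96%) of all genes. Over all 18193 genes slope and interaction difference correlated with r = 0.475 (Spearman rho = 0.461), where genes are not independent replicates and both come from the same arrays. Interaction differences leaned upward over all genes, with a median of 0.05 and 62.1% above 0 (0.03 and 59.3% with the covariate), and with quantile normalization, which moved the median to 0.00, the calls were 17 higher and 19 lower.

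**Figure D1:**
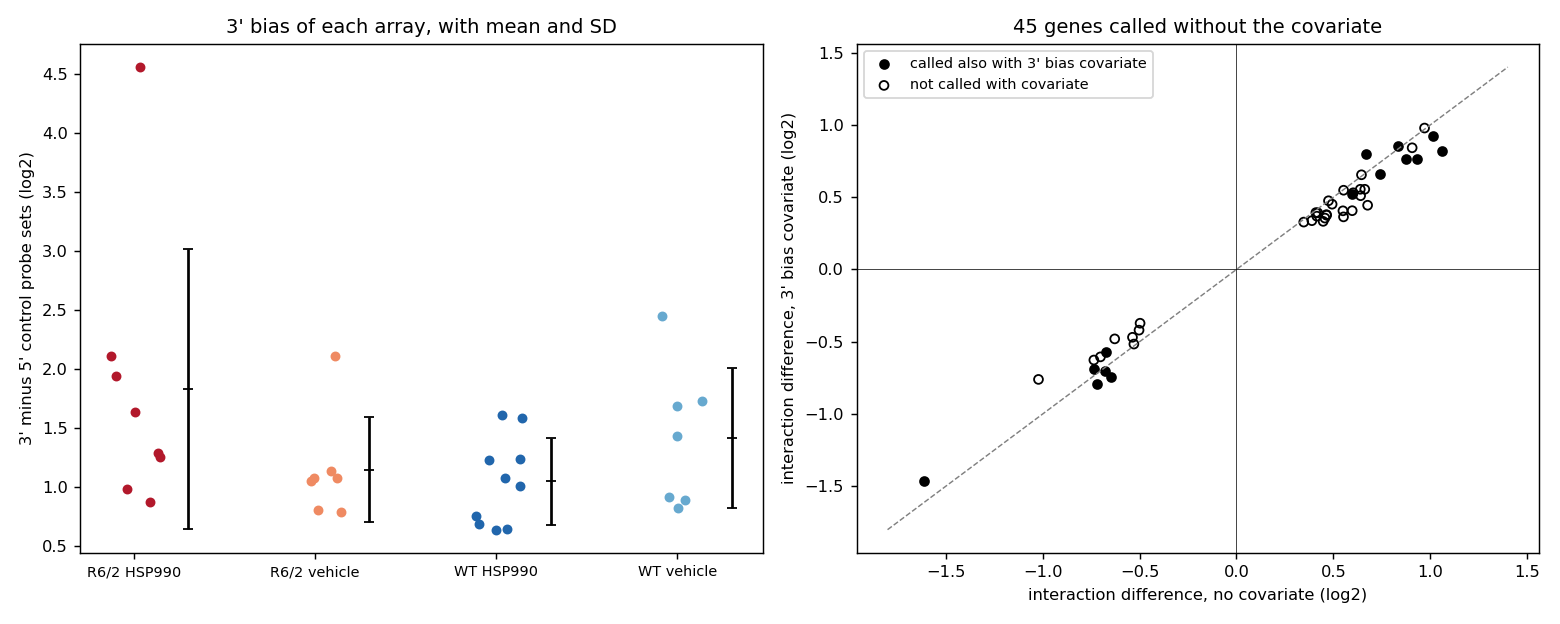
The left panel shows the 3' bias of each array (points, log2 difference of control probe sets) in the 4 groups with mean and SD, with R6/2 HSP990 replicate 5 at 4.56. The right panel sets the interaction difference of the 45 called genes without the covariate (x) against that with it (y), and the 45 points lie in the same quadrant on both axes, most of them closer to 0 with the covariate.

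Of the 45 genes, 3 were called as rising with HSP990 in both genotypes, and 6 were called in both with opposite directions. A further 14 rose and 2 fell in R6/2 mice with no call in WT, and 13 fell and 6 rose in WT mice with no call in R6/2. No call does not mean no change, since Pcdhb3 changed by 0.52 in R6/2 and by -0.39 in WT, which did not pass. The remaining gene, Arhgef2, was called in neither response. Among the 45, 41 have gene names and 4 have clone or predicted names. Held against every alternative fit and against each left-out array, 6 genes kept their call throughout, namely Hspa1a, Hspe1, Kcns2, Mknk2, Rad51ap1 and Tcf19. Rad51ap1, whose signal is dim, was not in the fit without dim genes. With the 3' bias covariate the calls of 11 named genes were kept, those of Cenpe, Hspa1a, Hspd1, Hspe1, Kcns2, Mknk2, Rad51ap1, Sap30, Stil, Tcf19 and Tekt2. The other 30 named genes lost theirs, with adjusted p from 0.0582 for Rcan1 to 0.259 for Kctd1.

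**Figure D2:**
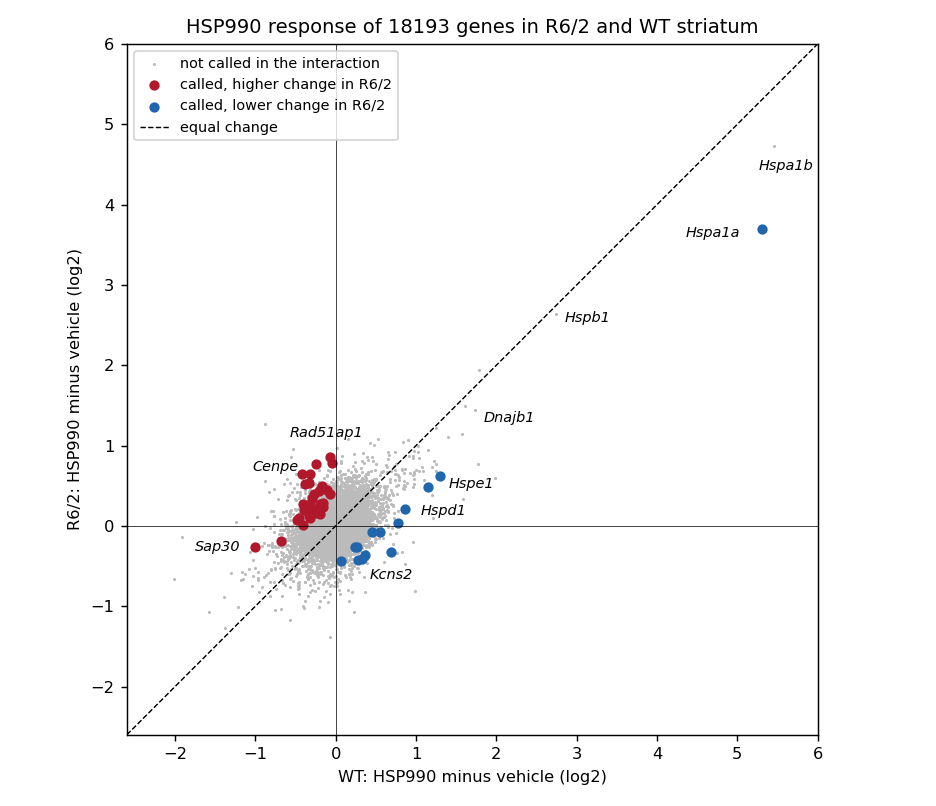
Each point is 1 of 18193 genes, with the HSP990 response in WT mice on the x axis and in R6/2 mice on the y axis (both log2, HSP990 minus vehicle), and the dashed line marks an equal response. Called genes with a higher change in R6/2 (red) lie above the line and those with a lower change (blue) below it, with Hspa1a, at 3.70 in R6/2 and 5.31 in WT, the most distant called gene, while Hspb1 lies near the line.

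The chaperone genes Hspa1a and Hspa1b responded strongly to the drug in both genotypes, and promoter sequences of chaperone genes are shown because they hold the elements through which HSP90 inhibition is known to act. The sequences are the 250 bases before the start of each gene from RefSeq on build GRCm38.p6, written 5' to 3' along the gene. Capitals mark heat shock elements of at least 2 units, searched on both strands as GAANNTTC or TTCNNGAA, which 12.8% of 32851 such windows hold. Elements of 3 units, in which GAANNTTC is followed by NNGAA or TTCNNGAA by NNTTC, occur in 0.466% of the windows. The windows are Hspe1 at chr1:55087898-55088147 on the plus strand, Hspa1a at chr17:34972157-34972406 on the minus strand and Hspb1 at chr5:135887669-135887918 on the plus strand.
Hspe1: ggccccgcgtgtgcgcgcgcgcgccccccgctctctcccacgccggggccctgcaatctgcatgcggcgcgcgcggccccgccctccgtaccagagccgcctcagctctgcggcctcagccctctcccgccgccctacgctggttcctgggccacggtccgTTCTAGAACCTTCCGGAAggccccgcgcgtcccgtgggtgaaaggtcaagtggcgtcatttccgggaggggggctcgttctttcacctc
Hspa1a: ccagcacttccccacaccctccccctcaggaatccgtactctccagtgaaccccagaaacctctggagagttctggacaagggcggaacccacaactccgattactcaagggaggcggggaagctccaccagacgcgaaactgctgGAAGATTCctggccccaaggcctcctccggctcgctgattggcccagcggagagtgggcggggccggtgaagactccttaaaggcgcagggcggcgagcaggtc
Hspb1: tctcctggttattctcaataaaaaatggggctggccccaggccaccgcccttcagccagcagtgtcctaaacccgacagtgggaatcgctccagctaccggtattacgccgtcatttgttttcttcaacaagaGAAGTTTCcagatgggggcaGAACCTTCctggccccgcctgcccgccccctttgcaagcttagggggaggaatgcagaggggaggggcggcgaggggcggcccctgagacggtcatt

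In the Hspe1 window a run of capitals holds 2 overlapping 3-unit matches, which begin 89 and 84 bases before the start. Hspe1 and Hspd1 are neighbours transcribed in opposite directions, and of the 2 starts listed for Hspd1, the window of the other one shares 215 bases with the Hspe1 window, including the same element. Hspa1a and its near copy Hspa1b have windows that are 98.8% identical, with a single 2-unit match 104 bases before the start. Hspb1 has 2 such matches, at 117 and 97 bases. A match is a description of letters and not of binding.

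Hspe1 encodes HSP10, the lid of the mitochondrial folding chamber. Its lowest, median and highest log2 values were 11.27, 11.48 and 11.65 in R6/2 HSP990 arrays, 10.76, 10.81 and 11.08 in R6/2 vehicle arrays, 11.82, 12.05 and 12.32 in WT HSP990 arrays and 10.56, 10.71 and 11.17 in WT vehicle arrays. Every treated array was above every vehicle array in each genotype, and the R6/2 HSP990 arrays all lay below the WT HSP990 arrays, while the vehicle groups overlapped. The rise was 0.62 ± 0.08 in R6/2 and 1.30 ± 0.08 in WT, an interaction difference of -0.68 ± 0.11 (adjusted p = 0.00289, and -0.70 with adjusted p = 0.0092 with the covariate). The other probe set of Hspe1 gave -0.84 ± 0.12, and it was the 1 called probe set among the 54 further ones of the named genes.

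Hspd1 encodes HSP60, which forms the chamber itself. Its values ran through 10.96, 11.32 and 11.72 in R6/2 HSP990 arrays, 10.70, 10.88 and 10.9997 in R6/2 vehicle arrays, 11.51, 11.73 and 11.96 in WT HSP990 arrays and 10.34, 10.61 and 10.79 in WT vehicle arrays. The treated and vehicle arrays were apart in WT and touched in R6/2, where the lowest treated array lay below the highest vehicle array. The interaction difference was -0.67 ± 0.12 (adjusted p = 0.00556), close to that of its neighbour, and -0.57 with adjusted p = 0.0449 with the covariate. It missed the threshold when the covariate was fitted without R6/2 HSP990 replicate 5 or over all probe sets (adjusted p = 0.0548 and 0.0510). The genotype gap of Hspd1 was called on both treatments, with the R6/2 median above WT on vehicle and below it on HSP990. For Hspe1 the gap was called on HSP990 alone.

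Hspa1a encodes an inducible HSP70 and had the largest called difference. Its values were 9.81, 10.26 and 10.64 in R6/2 HSP990 arrays, 6.01, 6.31 and 7.82 in R6/2 vehicle arrays, 10.82, 11.21 and 11.58 in WT HSP990 arrays and 5.27, 5.79 and 6.71 in WT vehicle arrays. Treated groups did not overlap with their vehicle groups or with each other, whereas the vehicle groups overlapped. The rise was 13.01-fold in R6/2 and 39.7-fold in WT, and the interaction difference was -1.61 ± 0.28 (adjusted p = 0.00543). The genotype gap had opposite signs on the 2 treatments, with R6/2 minus WT at -0.98 ± 0.19 on HSP990 and 0.63 ± 0.21 on vehicle. Hspa1b, measured by 3 probe sets whose signal Hspa1a transcripts can share, had differences of -0.73 ± 0.42 (adjusted p = 0.475), -1.22 ± 0.44 and -1.30 ± 0.50, none of which passed.

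Other chaperone genes did not pass one by one. Hspb1, a small heat shock protein that holds unfolded proteins, rose by 2.63 ± 0.12 in R6/2 and 2.75 ± 0.12 in WT, with a difference of -0.11 ± 0.17 (adjusted p = 0.828). Dnajb1, an HSP40 co-chaperone, had a difference of -0.29 ± 0.11 (adjusted p = 0.258), and Hsph1, an HSP110 nucleotide exchange factor, -0.42 ± 0.11 (adjusted p = 0.101), although all its R6/2 HSP990 arrays lay below all WT HSP990 arrays. Cacybp, a co-chaperone found in ubiquitin ligase complexes, came nearest at -0.57 ± 0.15 (adjusted p = 0.0809). Hspa9, the mitochondrial HSP70, did not share the pattern of Hspe1 and Hspd1, with a difference of -0.01 ± 0.10.

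Over the 6 chaperone lists together (cytosolic HSP70 and HSP110, small heat shock proteins and Bag genes, HSP40, HSP90 and its co-chaperones, mitochondrial chaperones and proteases, and the CCT chaperonin), 89 genes were measured. None had a higher and 3 a lower interaction, where 0.17% of all genes were higher and 0.077% lower, with a median difference of -0.06 against 0.05 over all genes. The lists were chosen with earlier results of these data known, so these counts are description and not a test. In R6/2 28 rose and 1 fell, where 2.18% of all genes rose and 0.918% fell. In WT 30 rose and 4 fell, where 2.24% rose and 3.57% fell. Of the 28 that rose in R6/2, 26 had the smaller change in R6/2, against 77 of 396 over all genes that rose in R6/2. Of the 30 that rose in WT, all 30 had the smaller change in R6/2, against 350 of 407 over all genes. Each response is a term of the difference, so choosing on the R6/2 rise favours a higher difference and choosing on the WT rise a lower one. On vehicle, mean levels were higher in R6/2 in each of the 6 lists. The smallest gap was 7.41 against 7.40 in WT (small heat shock proteins and Bag), the largest 10.96 against 10.66 (CCT). On HSP990, R6/2 means were lower for HSP70 and HSP110 (9.49 against 9.59), HSP40, and HSP90 (9.96 against 9.97). They were higher for the other lists, as for CCT (11.21 against 11.05). A smaller change was thus not always a lower treated level. These gaps were not tested. Without R6/2 vehicle replicate 1, 6 of the 89 were called, where the calls over all 18193 genes were 182. The chaperone count stayed at 3 without R6/2 vehicle replicate 7, R6/2 HSP990 replicate 5, WT vehicle replicate 4 or WT vehicle replicate 7. Calls over all genes were then 39, 35, 69 and 93. The count of rises over all genes in R6/2 also rests on single arrays, since 563 genes (3.09%) were called in either direction with all arrays, 1043 when R6/2 vehicle replicate 1 was left out and 309 when replicate 7 of that group was. In WT 1056 genes (5.8%) were called.

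**Figure D3:**
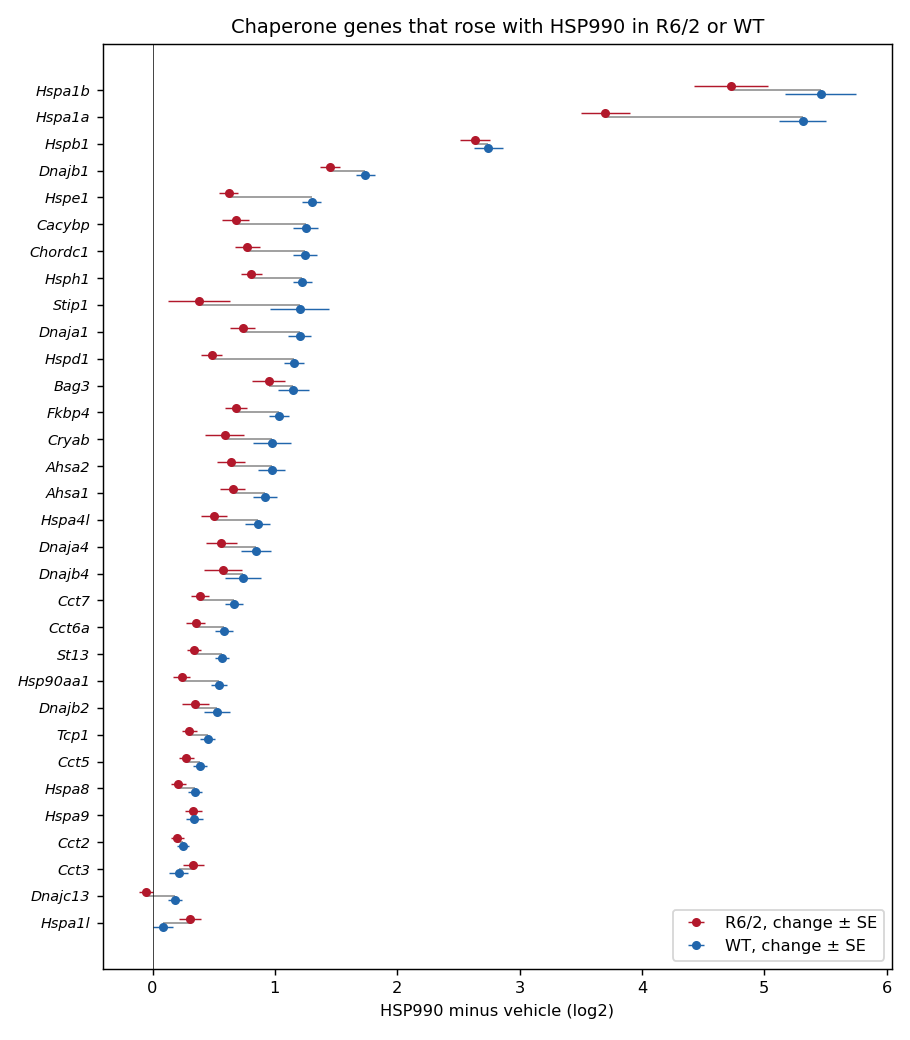
Responses (log2, HSP990 minus vehicle, with SE of the fit) of the 32 chaperone genes that rose in R6/2 (red) or WT (blue) mice, 1 gene a row. The R6/2 point lies to the left of the WT point in 30 of the 32 rows, with Hspa1l and Cct3 as the exceptions. The points are changes and not levels on HSP990.

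Genes called in both responses with opposite directions included Cenpe, Mknk2, Tcf19 and Hr, which rose in R6/2 and fell in WT. The others were Kcns2 and a clone-named gene, which fell in R6/2 and rose in WT. Cenpe, which encodes the kinetochore motor of mitosis, had values of 5.51, 5.78 and 5.92 in R6/2 HSP990 arrays, 5.06, 5.16 and 5.34 in R6/2 vehicle arrays, 4.46, 4.59 and 5.07 in WT HSP990 arrays and 4.84, 4.92 and 5.23 in WT vehicle arrays. All R6/2 HSP990 arrays were above all arrays of the other groups, and the WT groups overlapped. Its difference was 0.88 ± 0.12 (adjusted p = 0.000359, and 0.77 with adjusted p = 0.00411 with the covariate), but it is dim, with a mean below the median of all probe sets (5.76), and its other probe set gave 0.06 ± 0.23. With the mean of both probe sets it did not pass (adjusted p = 0.139).

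Mknk2 encodes a kinase downstream of MAP kinases that phosphorylates the cap-binding factor of translation. Its values were 8.83, 8.94 and 9.11 in R6/2 HSP990 arrays, 8.47, 8.71 and 8.85 in R6/2 vehicle arrays, 8.56, 8.74 and 9.05 in WT HSP990 arrays and 8.997, 9.06 and 9.25 in WT vehicle arrays. The vehicle groups did not overlap, with R6/2 the lower, whereas the treated groups did. The R6/2 minus WT gap was 0.20 on HSP990 and -0.39 on vehicle, and the interaction difference was 0.60 ± 0.09 (adjusted p = 0.00139). Of 18 genes of the ERK and MNK pathway it was the 1 called, where 0.247% of all genes were. The list was chosen with earlier results of these data known, so its count is description and not a test. The relative Mknk1 was at 0.31 (adjusted p = 0.255).

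Kcns2 encodes a silent subunit that modifies voltage-gated potassium channels. Its values were 7.62, 7.84 and 7.96 in R6/2 HSP990 arrays, 8.07, 8.22 and 8.55 in R6/2 vehicle arrays, 8.53, 8.92 and 9.16 in WT HSP990 arrays and 8.32, 8.57 and 8.68 in WT vehicle arrays. The R6/2 groups did not overlap, and on HSP990 the genotypes were wholly apart. HSP990 moved it by -0.41 ± 0.08 in R6/2 and by 0.33 ± 0.08 in WT, so the R6/2 minus WT gap was -1.03 on HSP990 and -0.29 on vehicle. The interaction difference was -0.74 ± 0.11 (adjusted p = 0.00139). Kcns2 was the 1 called gene among 53 potassium channel genes, where 0.247% of all genes were called. That list too was chosen with earlier results known, so the count is description.

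Hr, a nuclear receptor corepressor, had a difference of 0.64 ± 0.12 (adjusted p = 0.0132, and 0.0926 with the covariate). On vehicle all R6/2 arrays (5.26 to 5.63) lay below all WT arrays (5.99 to 6.80), while on HSP990 the R6/2 arrays (5.64 to 6.02) overlapped with those of WT (5.87 to 6.24). The other probe set of Hr, which is dim, gave an interaction difference of 0.10 ± 0.09.

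Genes of DNA replication, repair and mitosis form the longest list. It was chosen with earlier results of these data known, so its counts describe the list and do not test it. Of 61 measured, 4 had a higher interaction (Cenpe, Tcf19, Rad51ap1 and Chek1) and none a lower one, where 0.17% of all genes were higher and 0.077% lower, and 3 were called with the covariate. In R6/2 6 of the 61 rose and none fell, where 2.18% of all genes rose and 0.918% fell. In WT 1 rose and 5 fell, where 2.24% of all genes rose and 3.57% fell, so the single WT rise is near the share of all genes. The median difference was 0.22 (0.14 with the covariate), and 50 of the 61 (82.0%) were above 0, against 62.1% of all genes. Most are dim, 35 of 61, where 37.9% of all genes are. Of the members not called, Cdt1, which licenses replication origins, came nearest at 0.72 (adjusted p = 0.0543), and Mcm5, a helicase subunit, rose in R6/2 (0.50) with an interaction difference of 0.62 (adjusted p = 0.0876).

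Tcf19, a chromatin reader linked to cell cycle entry, had values of 6.91, 7.16 and 7.72 in R6/2 HSP990 arrays, 5.98, 6.63 and 6.96 in R6/2 vehicle arrays, 6.18, 6.32 and 6.71 in WT HSP990 arrays and 6.40, 6.93 and 6.98 in WT vehicle arrays. The treated groups did not overlap, and the other pairs did. Its difference was 1.06 ± 0.18 (adjusted p = 0.0052), and with the covariate, on which it had a slope of 0.23 (adjusted p = 0.00543), it was 0.82 (adjusted p = 0.0226). The other probe set of Tcf19, which is dim, gave 0.11 ± 0.10.

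Rad51ap1, a partner of the recombinase of homologous recombination, had values of 5.73, 6.06 and 6.53 in R6/2 HSP990 arrays, 4.73, 5.34 and 5.44 in R6/2 vehicle arrays, 4.66, 4.87 and 5.03 in WT HSP990 arrays and 4.32, 5.00 and 5.18 in WT vehicle arrays. The R6/2 HSP990 arrays were above all others. It rose by 0.86 ± 0.12 in R6/2 and had -0.07 ± 0.11 in WT, a difference of 0.93 ± 0.16 (adjusted p = 0.00556, and 0.0449 with the covariate). Its 4 probe sets were positive, at 0.93, 0.82, 0.38 and 0.10. Chek1, the checkpoint kinase of damaged or stalled replication, had a difference of 0.66 ± 0.12 (adjusted p = 0.0113), which the covariate took to 0.55 (adjusted p = 0.0804). All its R6/2 HSP990 arrays (5.17 to 5.61) were above all R6/2 vehicle arrays (4.78 to 5.00). Chek1 is dim, and its other probe sets gave -0.11, 0.39, 0.08 and 0.01, none of which passed.

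Outside that list, 2 further genes of cell division rose in R6/2. Stil, needed for centriole duplication, had values of 4.19, 4.57 and 4.95 in R6/2 HSP990 arrays, 3.39, 3.81 and 4.11 in R6/2 vehicle arrays, 2.98, 3.34 and 3.74 in WT HSP990 arrays and 3.24, 3.35 and 3.57 in WT vehicle arrays. The R6/2 HSP990 arrays were again above all others, with a difference of 0.83 ± 0.16 (adjusted p = 0.0143), which missed the threshold in the fit with the replicate block (adjusted p = 0.0778). Sgo2a, a shugoshin that protects cohesion at centromeres, had a difference of 0.64 ± 0.14 (adjusted p = 0.0263), which did not pass with the covariate (adjusted p = 0.165) or with any of 5 arrays left out. Both are dim, and both were picked here for their annotation after their values were seen.

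The promoters of these 6 genes were searched for letters of cell cycle promoters. The genes were chosen by their calls and annotation, so shares set beside all windows are description and not a test. Taking the first listed window of each gene, the CCAAT box was present in 5 of 6, where 33.8% of all windows hold it, and Chek1 had none. Sgo2a has another window, which held none. None of these windows held the cell cycle homology element TTTGAA (16.0% of all windows) or any of 4 E2F site spellings, TTTCCCGC, TTTGGCGC, TTTCGCGC and TTTGCCGC (1.86%). Cenpe at chr3:135212313-135212562 on the plus strand and Tcf19 at chr17:35516825-35517074 on the minus strand are shown, with CCAAT boxes in capitals. They are the 2 members called in both responses with opposite directions.
Cenpe: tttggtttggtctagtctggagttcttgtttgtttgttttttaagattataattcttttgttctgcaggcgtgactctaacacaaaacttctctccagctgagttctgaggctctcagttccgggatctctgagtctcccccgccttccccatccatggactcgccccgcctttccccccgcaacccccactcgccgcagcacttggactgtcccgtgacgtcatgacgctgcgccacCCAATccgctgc
Tcf19: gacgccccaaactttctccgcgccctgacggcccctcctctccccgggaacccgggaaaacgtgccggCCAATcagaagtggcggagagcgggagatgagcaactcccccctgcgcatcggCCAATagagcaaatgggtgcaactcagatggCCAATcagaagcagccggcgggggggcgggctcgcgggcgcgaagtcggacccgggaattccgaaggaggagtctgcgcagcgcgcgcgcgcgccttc

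**Figure D4:**
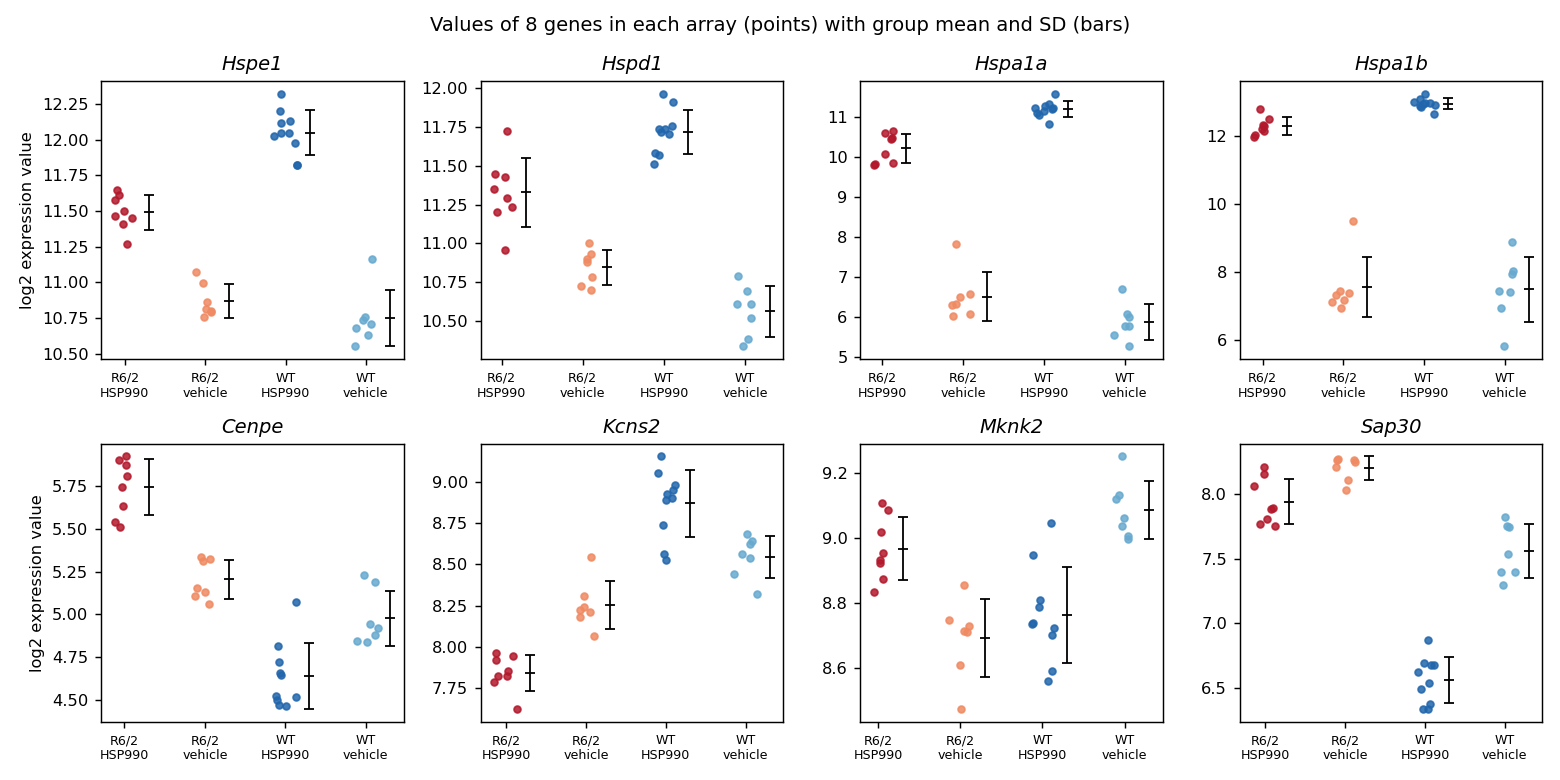
Log2 expression values of 8 genes in each array (points) with group mean and SD (bars), for R6/2 HSP990, R6/2 vehicle, WT HSP990 and WT vehicle from left to right. Hspe1, Hspd1 and Hspa1a rise less in R6/2 than in WT. Cenpe and Mknk2 are higher in R6/2 HSP990 than in R6/2 vehicle arrays and lower in WT HSP990 than in WT vehicle arrays. Kcns2 does the reverse, and Sap30 falls more in WT than in R6/2.

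The other named genes called as rising in R6/2 with no call in WT include 1, Tekt2, that kept its call with the covariate. Qpctl, a glutaminyl cyclase of the Golgi (0.55 ± 0.11), Dcun1d3, a regulator of cullin neddylation (0.45 ± 0.09), and Zfp574, a zinc finger gene (0.46 ± 0.10), had 3, 2 and 3 probe sets, all of positive sign, and did not pass with the covariate (adjusted p = 0.137, 0.151 and 0.173). Psme4, a proteasome activator, rose by 0.23 in R6/2 and had a difference of 0.39 ± 0.08 (adjusted p = 0.0257, and 0.162 with the covariate), with 5 of its 6 probe sets positive. Its R6/2 HSP990 arrays (9.16 to 9.46) were above all R6/2 vehicle arrays (8.88 to 9.10). Rnf26, Dmrtc1a, Pcdhb3, a clustered protocadherin, and Cast, the calpain inhibitor, had differences from 0.46 to 0.97 with adjusted p between 0.0288 and 0.0476, and each lost its call with 7 to 20 of the 32 arrays left out in turn. Tekt2, a protein of ciliary microtubules, had a difference of 0.80 with the covariate (adjusted p = 0.0181) and 0.67 without it (adjusted p = 0.0385). Without the covariate it lost its call with 14 of the 32 arrays left out in turn, and it lost it in 3 of the alternative fits.

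Among R6/2 falls, Alkbh7, a mitochondrial dioxygenase, was at 7.68 to 7.99 in R6/2 HSP990 arrays and 7.99 to 8.51 in R6/2 vehicle arrays, groups that came close and did not overlap. Its WT values were 8.18 to 8.62 with HSP990 and 8.04 to 8.61 with vehicle. The difference was -0.50 ± 0.11 (adjusted p = 0.0257). Gt(ROSA)26Sor, a noncoding transcript of the Rosa26 locus, had -0.70 ± 0.15 (adjusted p = 0.0235), with an R6/2 minus WT gap of -0.02 on HSP990 and 0.68 on vehicle. The calls of both ended with the covariate (adjusted p = 0.166 and 0.158).

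Genes called as falling in WT with no call in R6/2 were led by Sap30, a subunit of the SIN3 histone deacetylase complex. Sap30 changed by -0.26 in R6/2, which did not pass, and by -0.9985 in WT. Its values were 7.75, 7.89 and 8.21 in R6/2 HSP990 arrays, 8.03, 8.25 and 8.27 in R6/2 vehicle arrays, 6.34, 6.58 and 6.87 in WT HSP990 arrays and 7.29, 7.54 and 7.82 in WT vehicle arrays. The genotypes did not overlap on either treatment, and the WT groups were wholly apart while the R6/2 groups overlapped. The interaction difference was 0.74 ± 0.12 (adjusted p = 0.00312, and 0.0217 with the covariate), so that the R6/2 minus WT gap was 1.38 on HSP990 and 0.64 on vehicle. On linear values, where equal fold changes of unequal levels differ, it did not pass (adjusted p = 0.185). Sap30 was the 1 called gene among 31 deacetylase and SIN3 genes, a list chosen with earlier results known, where 0.247% of all genes were called.

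Bcl11a, a transcription factor of neurons, was at 9.73 to 10.07 in R6/2 HSP990 arrays, 9.81 to 10.40 in R6/2 vehicle arrays, 9.21 to 9.59 in WT HSP990 arrays and 9.91 to 10.30 in WT vehicle arrays. It changed by -0.19 ± 0.07 in R6/2, which did not pass, and fell by 0.69 ± 0.07 in WT. The WT groups were apart and the R6/2 groups overlapped. Of its 7 probe sets 3 had the sign of the difference (0.49 ± 0.10 for the one used). Tpst2, a tyrosine sulfotransferase, and Gba2, a glucosylceramidase outside lysosomes, fell in WT by 0.48 ± 0.08 and 0.41 ± 0.06, with R6/2 responses of 0.08 and 0.01. For both, vehicle arrays of the genotypes did not overlap and treated arrays did.

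Rcan1, an inhibitor of calcineurin, had the smallest called difference (0.35 ± 0.07, adjusted p = 0.0132), and its other, dim probe set was at -0.54 ± 0.28. The mean of the 2 gave -0.10, the 1 reversal of a called gene. Fbxo28, a ubiquitin ligase subunit, had a difference of 0.60 ± 0.12, with -0.13 and -0.37 for its other 2 probe sets. Polrmt, the RNA polymerase of mitochondria (0.55 ± 0.12), Fcsk, a fucose kinase (0.60 ± 0.13), and Zfp954 (0.68 ± 0.15) had slopes on 3' bias that passed the test (0.18, 0.18 and 0.22), and their differences with the covariate were 0.36, 0.41 and 0.44, none of which passed. St6galnac4, a sialyltransferase, Plekhf2, an endosomal protein, Ydjc and Ctdp1, a phosphatase of RNA polymerase II, had differences from 0.41 to 0.47, none of which passed with the covariate (adjusted p from 0.0649 to 0.217). Ydjc lost its call with 14 and Ctdp1 with 18 of the 32 arrays left out in turn.

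Genes called as rising in WT with no call in R6/2 were Rnf144a, Ntrk3, Ipw and Kctd1 and 2 clone-named genes. Rnf144a, a ubiquitin ligase gene, was at 7.94 to 8.29 in R6/2 HSP990 arrays, 7.73 to 8.41 in R6/2 vehicle arrays, 9.06 to 9.42 in WT HSP990 arrays and 8.62 to 8.97 in WT vehicle arrays. The WT groups were apart, and WT was above R6/2 on both treatments. The difference was -0.54 ± 0.11 (adjusted p = 0.0143, and 0.104 with the covariate). Further probe sets of Rnf144a, which are dim, gave 0.00 ± 0.10 and -0.40 ± 0.15. Ntrk3, a neurotrophin receptor, had -0.53 ± 0.11 (adjusted p = 0.0233, and 0.0926 with the covariate), with 7 of its 8 probe sets negative. Ntrk3 changed by -0.26 in R6/2, which did not pass, and by 0.27 in WT. Ipw, an imprinted noncoding RNA, had -1.02 ± 0.21 and a slope on 3' bias of -0.25 (adjusted p = 0.0117), and with the covariate -0.76 (adjusted p = 0.165). Its change was -0.33 in R6/2, which did not pass, and 0.69 in WT. Kctd1, a transcriptional repressor gene, had -0.63 ± 0.14 (adjusted p = 0.0479, and 0.259 with the covariate), and lost its call with 20 of the 32 arrays left out in turn. Arhgef2, a microtubule-bound activator of RhoA, had responses of -0.26 in R6/2 and 0.24 in WT, neither of which passed, and a difference of -0.50 ± 0.11 (adjusted p = 0.0476). It lost its call with 22 of the 32 arrays left out in turn.

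The same contrast can be read as a change of the genotype gap. For 37 of the 45 genes the R6/2 minus WT gap was larger in size on HSP990 than on vehicle. The gap was called on HSP990 for 39 of the 45, where 33.6% of all genes were, and on vehicle for 23, where 21.5% were. The interaction is the HSP990 gap minus the vehicle gap, so choosing genes on it favours large gaps. The shares of all genes therefore do not measure an excess here. Both gaps were called for 17 genes, the HSP990 gap alone for 22 and the vehicle gap alone for 6. Among the 22 were Cenpe, with a gap of 1.10 on HSP990 and 0.23 on vehicle, and Rad51ap1 (1.26 and 0.32). The 6 were Gba2, Gt(ROSA)26Sor, Hr, Tpst2, Zfp574 and a clone-named gene. For each of the 45 genes the interaction is itself the test of the difference between its gaps. Tpst2 had a gap of -0.06 on HSP990 and -0.61 on vehicle, and Hr -0.18 and -0.82.

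**Figure D5:**
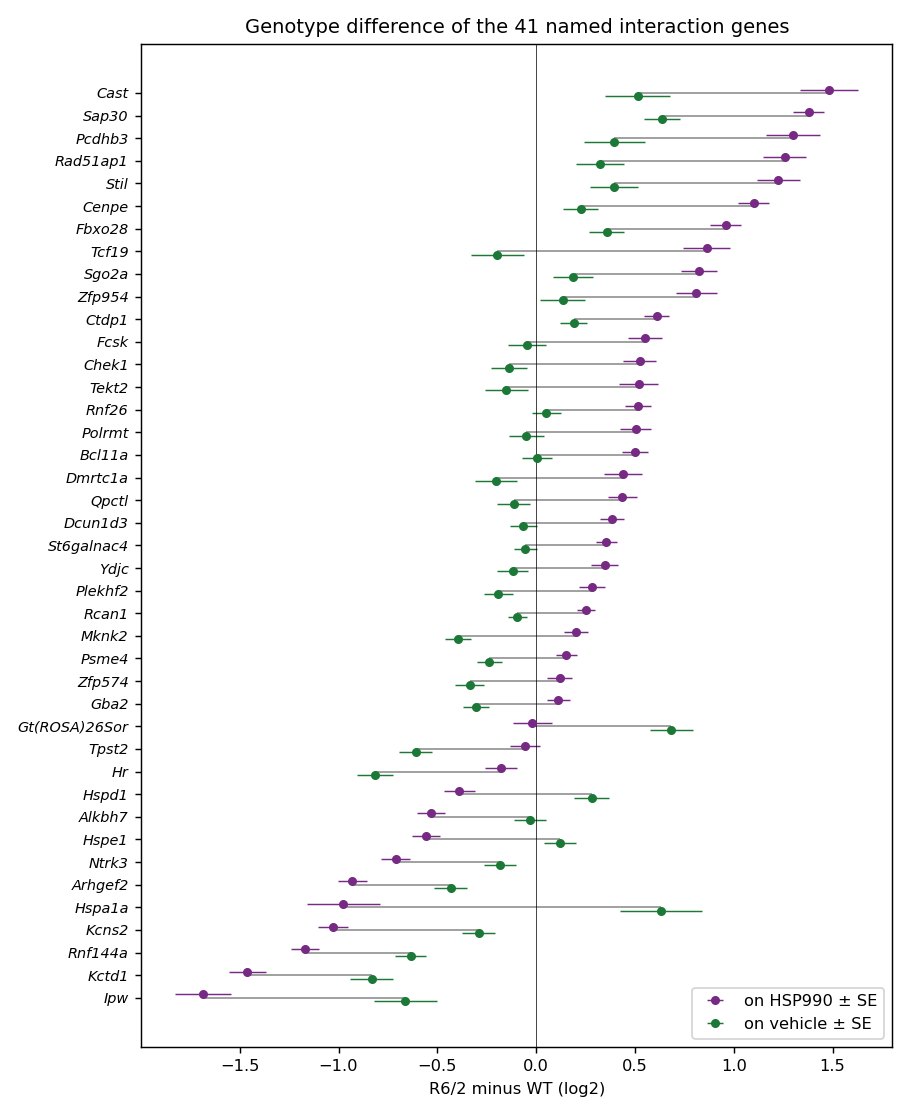
R6/2 minus WT differences (log2, with SE of the fit) of the 41 named genes on HSP990 (purple) and on vehicle (green), 1 gene a row, sorted by the value on HSP990. Purple points lie farther from 0 than green points in most rows, while Gt(ROSA)26Sor, Tpst2, Hr and Gba2 have a purple point near 0 or closer to it.

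Other gene lists held no called interaction, which at 0.247% of all genes called is near the background for lists of these lengths. Of 25 glucocorticoid-responsive genes 9 fell in R6/2 and 14 in WT, where 0.918% and 3.57% of all genes fell. Their median interaction difference was 0.18 and 22 (88.0%) were above 0, against 62.1% of all genes. Mfsd2a, a lipid transporter of the blood-brain barrier, was nearest to a call (0.50, adjusted p = 0.147). Among WT vehicle arrays the mean of these 25 genes was highest in replicate 4 (9.18, with a group median of 8.03). The part of that array in the lean was not tested. Of 20 genes of the ATF4 stress response 5 rose in R6/2 and 9 in WT, where 2.18% and 2.24% of all genes rose. Ddit3, a stress transcription factor, was nearest (-0.47, adjusted p = 0.0778), with a response of 0.12 in R6/2, which did not pass, and 0.59 in WT. No call was made among 21 endoplasmic reticulum chaperone and Xbp1 genes, 25 immediate early genes, 31 proteasome genes, 31 respiratory chain genes, 21 clock genes, 20 cholesterol genes, 17 NRF2 targets and 16 KLF genes, with median differences between -0.16 and 0.12.

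Cell type markers give the makeup of the samples, in which fewer cells of a type and less RNA per cell cannot be told apart. Of 27 markers of spiny neurons, the main neurons of striatum, none was called, with 13 interaction differences above 0 and 14 below it and a median of -0.05. Drd1, a dopamine receptor and the member with the lowest difference, had values of 8.97, 9.64 and 9.99 in R6/2 HSP990 arrays, 9.44, 10.43 and 10.91 in R6/2 vehicle arrays, 11.26, 11.75 and 11.96 in WT HSP990 arrays and 11.39, 11.74 and 11.97 in WT vehicle arrays. It was bright in all groups, as striatum should be, and R6/2 lay wholly below WT on both treatments. It fell in R6/2 by 0.80 ± 0.16 and had 0.04 ± 0.15 in WT, but the interaction difference of -0.84 ± 0.22 did not pass (adjusted p = 0.0836).

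All 10 markers of choroid plexus, the epithelium of the neighbouring ventricle, had positive interaction differences, from 0.70 to 1.25, and none was called. Their mean log2 value per array ran from 5.18 to 7.83 in R6/2 HSP990 arrays, 5.06 to 6.57 in R6/2 vehicle arrays, 5.15 to 9.06 in WT HSP990 arrays and 5.20 to 8.41 in WT vehicle arrays, so the groups overlapped widely. Of 15 oligodendrocyte markers 13 had a negative difference, with a median of -0.28, or -0.10 with the 3' bias covariate, and none was called. Astrocyte, microglia, endothelial, interneuron, cortex and red cell lists had no call and medians between -0.05 and 0.20. The part of choroid plexus tissue or of oligodendrocyte RNA in the 45 differences was not tested.

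Probe sets of the same gene did not always follow each other. Of the 41 named genes 27 had more than 1 probe set, and in 17 of these all had the same sign. Among 54 further probe sets 40 had the sign of the one used, and among the 30 that were not dim 23 did. The largest differences over all genes were mostly not called, because their spread was wide. Zfp874a had 2.16 ± 0.61 (adjusted p = 0.108), Crh, the corticotropin-releasing hormone gene, 1.78 ± 0.68 (0.252), Ano3, a membrane scramblase gene, -1.81 ± 0.55 (0.143) and Neat1, a nuclear noncoding RNA, -1.39 ± 0.61 (0.328).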

How the data were processed

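Total RNA of mouse striatum was labelled from its 3' end with biotin and hybridised to 32 arrays, per the labels' protocols. The deposited log2 values had been normalized between arrays by the authors, as array medians show, with a method not given in the sources used here, and the authors' design text names RACE for quality control only. Of 45101 probe sets, 64 were controls, 34945 had 1 symbol, 932 several and 9160 none, and 204 kept a symbol that RefSeq genes did not hold. Each of 18193 genes was represented by its single-symbol probe set of highest mean. A probe set is called dim where its mean is at or below the median of all (5.76).

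A model of 4 group means was fitted with limma 3.58.1 in R 4.3.3 (with data.table, version 1.17.8), two-sided, with Benjamini and Hochberg adjustment over all genes and a threshold of 0.05. Groups came from the sample titles. Levels are log2 values, errors are standard errors, and folds are antilogs. Permutation tests and tables used Python 3.11.15 with scipy 1.17.1. The 3' bias of an array is the mean 3' minus 5' difference of Gapdh and Actb control probe sets. Tested on simulated data of 18193 genes, the interaction fit recovered 2%, 54%, 88% and 100% of added differences of 0.25, 0.5, 1 and 2. Arrays limit the precision by their number.

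The members and lists were chosen with earlier results of these data known. Named genes are the called genes other than clone names, called list members and the 3 of smallest p in each list, chaperone genes, and the 5 largest differences in each direction. Stil and Sgo2a were grouped after their values were seen. A heat shock factor gene is not reported here. Tried as alternatives were 13 planned settings, each array left out, and 2 settings added later. No batch is given in the labels.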

Additional observations from a re-analysis of the deposited data

Results flagged for a closer look

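A single array stood apart from the rest of its group in 14 of the 172 groups looked at (8.14%), where chance flags about 1 in 20. For Hspe1 it was WT vehicle replicate 3 (11.17), and for Hspa1a R6/2 vehicle replicate 7 (7.82). R6/2 vehicle replicate 7 also stood apart for Ntrk3 (9.21), Ipw (6.41) and Ctdp1 (7.34). WT vehicle replicate 7 stood apart for Rad51ap1 (4.32), and WT vehicle replicate 4 for Psme4 (9.56) and Dmrtc1a (7.26). Rnf144a had R6/2 vehicle replicate 1 (7.73) and WT HSP990 replicate 7 (9.06) apart, and Psme4 also had R6/2 HSP990 replicate 5 (9.46). In 3' bias R6/2 HSP990 replicate 5 (4.56) and R6/2 vehicle replicate 1 (2.11) were far from the other arrays of their groups, and in the mean of choroid plexus markers WT HSP990 replicate 2 was (9.06).

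The response to HSP990 differed between R6/2 and WT, by the interaction test itself, for 41 named genes. Higher in R6/2, by interaction differences on the log2 scale, were Cenpe (0.88), Mknk2 (0.60), Sap30 (0.74), Tcf19 (1.06), Rad51ap1 (0.93), Chek1 (0.66), Rcan1 (0.35), Hr (0.64), St6galnac4 (0.41), Fbxo28 (0.60), Stil (0.83), Tpst2 (0.55), Qpctl (0.55), Bcl11a (0.49), Dcun1d3 (0.45). Further genes higher in R6/2 were Plekhf2 (0.47), Zfp574 (0.46), Psme4 (0.39), Sgo2a (0.64), Gba2 (0.41), Rnf26 (0.46), Polrmt (0.55), Fcsk (0.60), Dmrtc1a (0.65), Tekt2 (0.67), Ydjc (0.47), Ctdp1 (0.42), Pcdhb3 (0.91), Zfp954 (0.68), Cast (0.97). Lower in R6/2 were Kcns2 (-0.74), Hspe1 (-0.68), Hspa1a (-1.61), Hspd1 (-0.67), Rnf144a (-0.54), Ntrk3 (-0.53), Gt(ROSA)26Sor (-0.70), Ipw (-1.02), Alkbh7 (-0.50), Arhgef2 (-0.50), Kctd1 (-0.63).

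Outside the genes analysed, 39 of 10092 probe sets with no or several gene symbols passed the interaction test (0.386%), 6 higher and 33 lower in R6/2.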

How the results depend on the processing

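The count of 45 interaction genes was 80 with the mean of probe sets (41 higher, 39 lower), 73 over all probe sets (37 higher, 36 lower, 34945 tested), 150 with array weights, 74 on linear values, 398 with the first residual component, 16 with the 3' bias covariate, 16 with Gapdh bias alone and 25 without the 2 arrays of a Gapdh difference over 2. Chosen after seeing the data, the covariate gave 19 without R6/2 HSP990 replicate 5 and 24 over all probe sets. It was 36 with quantile normalization (17 higher, 19 lower), against 31 higher and 14 lower as deposited. With each array left out it ran from 30 to 182, the R6/2 response from 309 to 1043, the WT response from 768 to 1194, R6/2 against WT on HSP990 from 5740 to 6305 and on vehicle from 3281 to 4379. The R6/2 response (563 genes) was 880 over all probe sets, 368 with the bias covariate, 360 with Gapdh alone and 1100 with the residual component. The WT response (1056) was 1838 over all probe sets, 1815 with array weights and 1699 with the residual component. Over all probe sets R6/2 against WT was 10428 on HSP990 and 5968 on vehicle. Same-numbered arrays of different groups, with group means removed, had correlations from -0.29 to 0.38 over 43 pairs, 19 of them over 0.1. Their median was 0.07, against -0.02 for other pairs. The replicate block gave 23 interaction and 655 WT response calls, and whether same-numbered arrays share a batch was not tested. Of the 41 named genes 11 kept their call with the bias covariate, 25 with quantile normalization, 24 with the mean of probe sets and 41 with the residual component. Reversed were Rcan1 with the mean of probe sets (-0.10) and Dnajb1 on linear values (50.4 intensity units). For these shifts the cause was not tested. The number of arrays limits differences near 0.5, of which the simulation recovered 54%. Its noise was independent between genes and held no 3' bias, so recovery in these arrays may differ.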

Other observations

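With the 3' bias covariate 2 genes were called that had not passed without it, Nat8f3 (interaction difference -0.80, against -0.66 without the covariate) and Fastkd3. Ano3, which passed in neither fit, had a difference of -1.11 with the covariate and -1.81 without it.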
